A study of Mus musculus with 4 samples.

Results

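Bile is made by transporters in the 2 outer faces of the hepatocyte, and 10 of their genes are described here across cell types, lobule positions and feeding states. The genes are Abcb11, Abcb4, Atp8b1, Abcc2, Abcg5, Abcg8, Abcg2, Abcb1a, Abcc3 and Abcc4, chosen by symbol as exporters of bile acids and bile lipids plus a lipid flippase, and all 10 were found among 32285 gene symbols. The data are single-nucleus RNA sequencing of mouse liver, with 2 libraries from mice fasted for 16 to 24 h and 2 libraries from fed controls. Each library was made from 50 mg of frozen liver pooled from 8 mice per group. The labels name no strain, sex, age, genotype or time of day, and do not say whether the 2 libraries of a group came from different mice, so p-values measure the spread between libraries, which may be technical.

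At the canalicular face, which drains into bile, ABCB11 (the bile salt export pump) secretes bile salts, ABCB4 moves phosphatidylcholine into the outer leaflet, and ABCG5 and ABCG8 work as an obligate pair that exports sterols. ABCC2 secretes conjugated bilirubin and other organic anions, ABCG2 and ABCB1A export drugs and other xenobiotics, and ATP8B1 flips phospholipid back to the inner leaflet and so keeps the canalicular membrane resistant to bile salts. ABCC3 and ABCC4 sit at the basolateral face and return bile acids and conjugates to blood, a route known for its use when bile flow is blocked. Abcb11 is a textbook target of the bile acid receptor FXR, and Abcg5 and Abcg8 of the oxysterol receptor LXR. Liver lobules run from the portal tract, where blood enters, to the central vein, and many hepatocyte genes follow that axis. In the GENCODE annotation of GRCm38, Abcb1a (chr5:8660077-8748575) and Abcb4 (chr5:8893717-8959231) lie on the plus strand of chromosome 5, Abcc2 is at chr19:43782192-43840740 and Abcg2 at chr6:58584523-58695676 on the plus strand, and Abcc3 is at chr11:94343295-94392997 on the minus strand.

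After filtering, 29724 nuclei formed 20 clusters, of which 10 were hepatocyte-like, with 18760 nuclei. In 9 of those 10 hepatocyte clusters most of the nuclei came from 1 library. By their markers, 520 nuclei were cholangiocyte-like and 5402 endothelial-like, in 2 clusters, while 1755 were stellate-like and 1959 resembled Kupffer cells or macrophages. Lymphocyte clusters held 558 nuclei like T or NK cells and 428 like B or plasma cells, and 112 mesothelial-like and 87 dendritic-like nuclei made up the rest of the named ones (all names are used below without "like"). Only 1 of the 10 genes was among the variable genes chosen for clustering, and it was taken out. A hepatocyte had a median of 2924 and 3240 UMIs (counted molecules) in the fasted libraries, against 2548 in fed 1 and 1281 in fed 2. Summed hepatocyte counts were 20969345 and 19242623 UMIs in the fasted libraries, against 16806967 and 6663829 in fed 1 and fed 2. Between 39 and 80 barcodes per library also occurred in another library. Levels below are CPM, counts per 1000000 summed UMIs of the named nuclei, given as fasted 1, fasted 2, fed 1 and fed 2.

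Of the 10 genes, 7 were higher in pericentral than in periportal hepatocytes by the test, and 0 were lower. Hepatocytes with at least 1500 UMIs were ordered within each library by 9 pericentral and 11 periportal landmark genes, none of them an exporter, split into 3 bins of equal size, and the pericentral and periportal bins were compared by edgeR's quasi-likelihood test with library as a block (adjusted p below 0.05 over 12321 genes). The 7 were Abcb4, Abcc2, Abcg5, Abcg8, Abcg2, Abcc3 and Abcc4. Among all genes tested 16% passed, 8.08% of them higher and 7.91% lower pericentrally. The median log2 difference was 0.48 over the 10 genes and 0.00 over all genes. Pericentral nuclei were also deeper, with medians of 3351, 3678.5, 3211 and 2504 UMIs, against 2931, 3167, 2611 and 2206 UMIs in periportal nuclei, and the part of depth in the result was not tested.

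Of the lipid exporters, Abcb4 had 1410, 1240, 718 and 824 CPM in the pericentral bin, against 1010, 778, 379 and 422 CPM in the periportal bin. The pericentral value was the higher one in all 4 libraries, and in every library the level climbed at each step across 5 equal bins of the axis. Its log2 difference was 0.74 (SE 0.08, edgeR adjusted p = 3.20e-06). Abcg5 had 122, 106, 138 and 261 CPM pericentrally, against 86.1, 76.8, 72.7 and 227 CPM periportally (log2 difference 0.52, SE 0.10, edgeR adjusted p = 0.00185). Its partner Abcg8 had 150, 123, 111 and 110 CPM pericentrally, against 106, 84.7, 48.9 and 75.4 CPM periportally (0.67, SE 0.11, edgeR adjusted p = 7.02e-04). Both partners of the sterol pump were thus higher pericentrally in 4 of 4 libraries, with the smallest step for Abcg5 in fed 2, a log2 difference of 0.20.

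Among the exporters of organic anions and xenobiotics, Abcc2 had 2450, 2610, 2140 and 3380 CPM pericentrally, against 1900, 1810, 1420 and 2780 CPM periportally. The log2 difference was 0.43 (SE 0.06, edgeR adjusted p = 1.10e-04), and the level climbed at every one of the 5 bins in all 4 libraries. Abcg2 had 98.9, 77.4, 79.7 and 58.8 CPM pericentrally, against 75.2, 62.9, 49.3 and 54.0 CPM periportally (0.40, SE 0.09, edgeR adjusted p = 0.0038). The library difference of Abcg2 was smallest in fed 2, 0.12 on the log2 scale. Abcb1a stayed at 1.79 to 8.53 CPM in every bin of every library, with 11 to 41 UMIs per bin, and its difference was 0.10 (SE 0.26, edgeR adjusted p = 0.882). Abcb1a has a close paralogue, Abcb1b, and reads that fit both cannot be assigned, so the levels of either are uncertain.

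The bile salt pump and the flippase were not called by position. Abcb11 had 476, 444, 599 and 440 CPM pericentrally, against 453, 411, 683 and 411 CPM periportally, and was higher pericentrally in 3 of 4 libraries, fed 1 being the exception. Its log2 difference was 0.00 (SE 0.06, edgeR adjusted p = 0.988). Atp8b1 had 120, 124, 176 and 224 CPM pericentrally, against 139, 140, 189 and 247 CPM periportally. It was lower pericentrally in 4 of 4 libraries by a small step, with a log2 difference of -0.17 (SE 0.06) that did not pass (edgeR adjusted p = 0.0591) but did with DESeq2's size factors in edgeR (adjusted p = 0.0456).

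**Figure D1:**
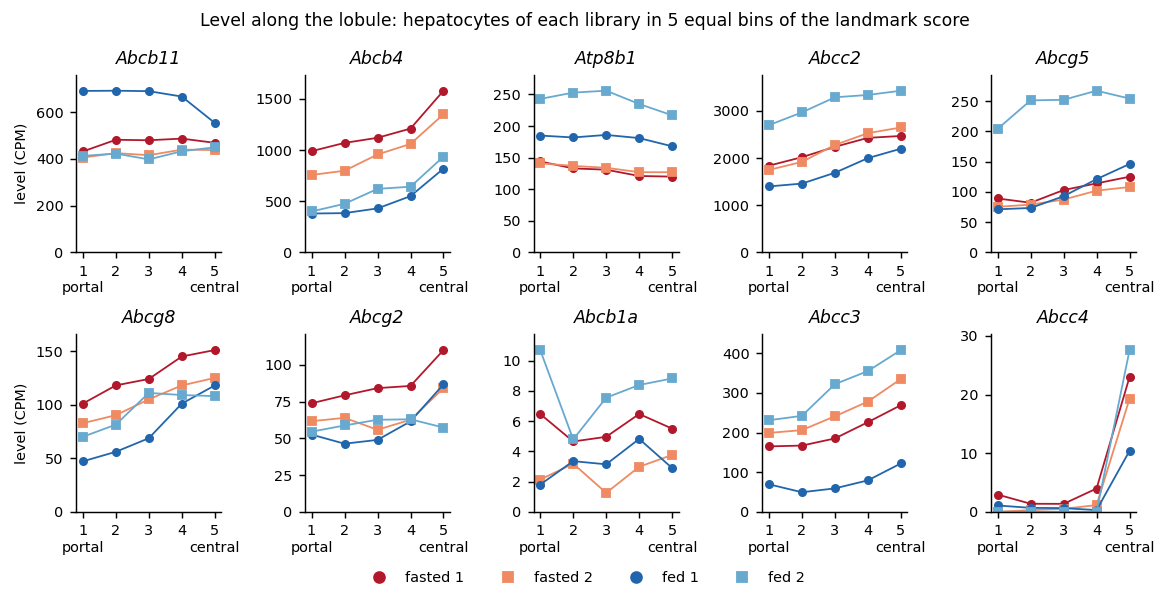
Level of each gene (CPM, vertical axis from 0) in 5 equal bins of hepatocytes from portal (1) to central (5), 1 line per library. Abcb4 and Abcc2 climb at every step in all 4 libraries. In fasted 1, fasted 2, fed 1 and fed 2, Abcb11 in bin 5 is 1.09, 1.08, 0.801 and 1.09 times its level in bin 1. Abcc4 is at most 3.97 CPM up to bin 4 and then reaches 23.0, 19.3, 10.4 and 27.6 CPM in the same libraries.

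Both basolateral exporters were higher pericentrally, with different shapes. Abcc3 had 251, 322, 106 and 385 CPM pericentrally, against 168, 203, 60.6 and 238 CPM periportally (log2 difference 0.66, SE 0.06, edgeR adjusted p = 5.65e-07), and the most central of 5 bins held 1.63 to 1.76 times the level of the most portal one. Its level climbed at each of the 5 bins in 3 of 4 libraries, while in fed 1 it was 69.4, 49.3, 59.0, 79.3 and 122 CPM from portal to central. Abcc4 had 15.3, 11.6, 6.36 and 16.2 CPM pericentrally, against 2.59, 0.18, 1.06 and 0 CPM periportally, from 15, 1, 5 and 0 periportal UMIs. The log2 difference was 3.28 (SE 0.38, edgeR adjusted p = 2.15e-05). Abcc4 met the count filter of that fit mainly through its pericentral bins, so the test is not independent of that selection. In fed 2, where 0 of 1406568 periportal UMIs were Abcc4, a floor of 3 counts (2.13 CPM) puts the pericentral level at least 7.58-fold higher.

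Most Abcc4 in hepatocytes lay in the nuclei closest to the central vein. The most central of 5 bins held 23.0, 19.3, 10.4 and 27.6 CPM, against 3.97, 1.15, 0.283 and 0 CPM in the bin next to it. The nuclei placed in bins held 132 of 143, 80 of 84, 44 of 45 and 25 of 32 hepatocyte Abcc4 UMIs. Of the UMIs in bins, the most central one carried 92, 72, 36 and 25, or 69.7%, 90.0%, 81.8% and 100% of Abcc4, from 19.7%, 19.8%, 21.7% and 20.3% of all UMIs. One hepatocyte cluster had Slc22a3, Kif26b, Slc1a2 and Glul (glutamine synthetase, an enzyme of the hepatocytes next to the central vein) among its leading genes. It held Abcc4 at 36.3 CPM in fasted 1, 35.1 CPM in fasted 2 and 38.7 CPM in fed 2, and had only 9 nuclei of fed 1. Another cluster, with 520 nuclei of fed 1 and also with Slc1a2 and Kif26b among its leading genes, held Abcc4 at 17.5 CPM in fed 1, from 34 UMIs. Glul and Slc1a2 are landmarks of the score, so these clusters and the central bin are not independent views.

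Markers of endothelial nuclei, where Abcc4 was higher still, moved in the same direction. The summed level of 10 endothelial markers in bin 5, the most central, was 99.8, 55.1, 63.9 and 40.8 CPM, against 53.4, 37.2, 35.1 and 16.8 CPM in bin 4, with 9 or 10 of the 10 detected in bin 5. Per 100 CPM of those markers, bin 5 held 23.1, 35.1, 16.3 and 67.6 CPM of Abcc4, against 1.25, 1.51, 0.99 and 1.56 CPM in endothelial nuclei themselves. Among the other marker lists, the sums for B or plasma cells and for T or NK cells were also higher pericentrally in every library. A single gene held most of each sum in the pericentral bin of 3, Bach2 at 259, 266, 693 and 928 CPM (95.1% to 98.9% of the sum) and Themis at 48.7, 22.7, 4.30 and 7.11 CPM (59.5% to 92.3%). The sums for cholangiocytes and for Kupffer cells or macrophages were lower pericentrally than periportally in every library. In the pericentral bin of 3, F8 held 51.8% and 71.9% of the endothelial sum in fasted 1 and fasted 2. Without its leading gene, the endothelial sum was still higher pericentrally in fasted 1, fasted 2 and fed 1. In fed 2 it was not. The part of other cells' RNA in the position results was not tested.

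Promoter sequence is shown for Abcc4, as the gene with the steepest difference along the lobule, and for Abcb11, as the flat one with a textbook FXR site. Both come from RefSeq (GRCm38.p6), where 8 of the 10 genes had an entry, with 12 promoters in all, each reaching from 250 bases before the start to 50 after it. The search for 3 motifs covered both strands. An inverted repeat of the FXR kind (GGNCA and TGACC with 1 base between) was in 1 of the 12, at Abcb11, and in 78 of 32851 promoters of all genes (0.237%). The antioxidant element core bound by NRF2 (TGAC and GC with 3 bases between) was in 4 of 12 and in 12.4% of all promoters. Those 4 lay at Abcc2, at Abcb1a after its start, and in more than 1 promoter of Abcc4. The TCF/LEF core of Wnt signalling (CTTTGAT) was in 0 of 12 and in 3.73% of all promoters. Capitals mark the FXR repeat in the Abcb11 line, 62 to 52 bases before the start, and the antioxidant core, on the opposite strand, in the Abcc4 line, 25 to 17 bases before it. The Abcb11 line is chr2:69342617-69342738 and the Abcc4 line chr14:118706220-118706369, both on the minus strand and read 5′ to 3′ toward the gene, which itself lies at chr2:69238282-69342616 for Abcb11 and chr14:118482692-118706219 for Abcc4.
Abcb11 promoter: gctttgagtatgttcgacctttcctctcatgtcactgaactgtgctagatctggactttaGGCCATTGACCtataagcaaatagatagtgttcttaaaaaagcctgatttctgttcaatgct
Abcc4 promoter: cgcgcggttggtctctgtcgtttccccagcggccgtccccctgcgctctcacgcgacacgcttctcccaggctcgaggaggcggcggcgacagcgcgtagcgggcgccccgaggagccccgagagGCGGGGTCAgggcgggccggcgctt

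No exporter passed the test of fasting against feeding in hepatocytes. In edgeR's test of fasted against fed over 13988 genes, 0 of 10 had an adjusted p below 0.05, 1 had an unadjusted p below 0.05, and DESeq2 also called 0, against 1.29% of all genes with an adjusted p. Over all genes, 0.00715% passed, which was 1 gene, and 6.81% had an unadjusted p below 0.05. Both fasted libraries lay above both fed ones for 3 of the 10 genes, against 20.7% of all genes, and below them for 1 of the 10, against 15.7%. The median log2 difference was 0.03 over the 10 genes and -0.01 over all.

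Abcb4 had 1200 and 997 CPM in fasted hepatocytes, against 522 and 614 CPM in fed hepatocytes, or 1100 ± 143 and 568 ± 65.3 (SD, n = 2 each). The groups did not overlap. The log2 difference was 0.90 (SE 0.32, edgeR unadjusted p = 0.0276, adjusted p = 0.653). Atp8b1 had 129 and 133 CPM in fasted hepatocytes, against 179 and 237 CPM in fed hepatocytes. It was the one gene lower in both fasted libraries (-0.71, SE 0.33, edgeR adjusted p = 0.751).

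For Abcb11 the libraries of 1 group differed more than the groups, with 472 and 424 CPM in fasted hepatocytes, against 653 and 417 CPM in fed hepatocytes (log2 difference -0.28, SE 0.32, edgeR adjusted p = 0.970). Fed 1 was the high library there. Abcc2 had 2200 and 2250 CPM in fasted hepatocytes, against 1750 and 3010 CPM in fed hepatocytes (-0.15, SE 0.40, edgeR adjusted p = 0.998). The 2 fed libraries stood on either side of the fasted ones.

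Part of the hepatocytes of fed 1 formed a cluster led by the acute phase genes Saa1 and Saa2, and the exporters stood at other levels in it. Abcb4 had 361 CPM in that cluster, against 526 CPM in the largest fed 1 cluster, Abcb11 575 against 720 CPM, Abcc2 1350 against 1890 CPM and Abcc3 49.2 against 82.8 CPM. Atp8b1 was higher there, at 219 against 158 CPM. These are values of 1 library with no replicate check.

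As a ratio, Abcc3 showed the widest gap of the 10 genes between libraries of 1 group, with 205 and 254 CPM in fasted hepatocytes, against 76.9 and 303 CPM in fed hepatocytes (log2 difference 0.20, SE 0.65, edgeR adjusted p = 0.998). Without fed 2 the log2 difference of Abcc3 was 1.62, and without fed 1 it was -0.49. Each of these fits has 1 fed library and so no measure of the spread between fed libraries. Abcc4 had 6.82 and 4.37 CPM in fasted hepatocytes, against 2.68 and 4.80 CPM in fed hepatocytes (0.54, SE 0.58, edgeR adjusted p = 0.962). Abcg2 had 88.1 and 66.0 CPM in fasted hepatocytes, against 60.6 and 59.7 CPM in fed hepatocytes, with both fasted libraries higher (0.32, SE 0.31, edgeR adjusted p = 0.947). Abcb1a had 5.91 and 2.60 CPM in fasted hepatocytes, against 3.39 and 7.05 CPM in fed hepatocytes (-0.34, SE 0.66, edgeR adjusted p = 0.996).

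**Figure D2:**
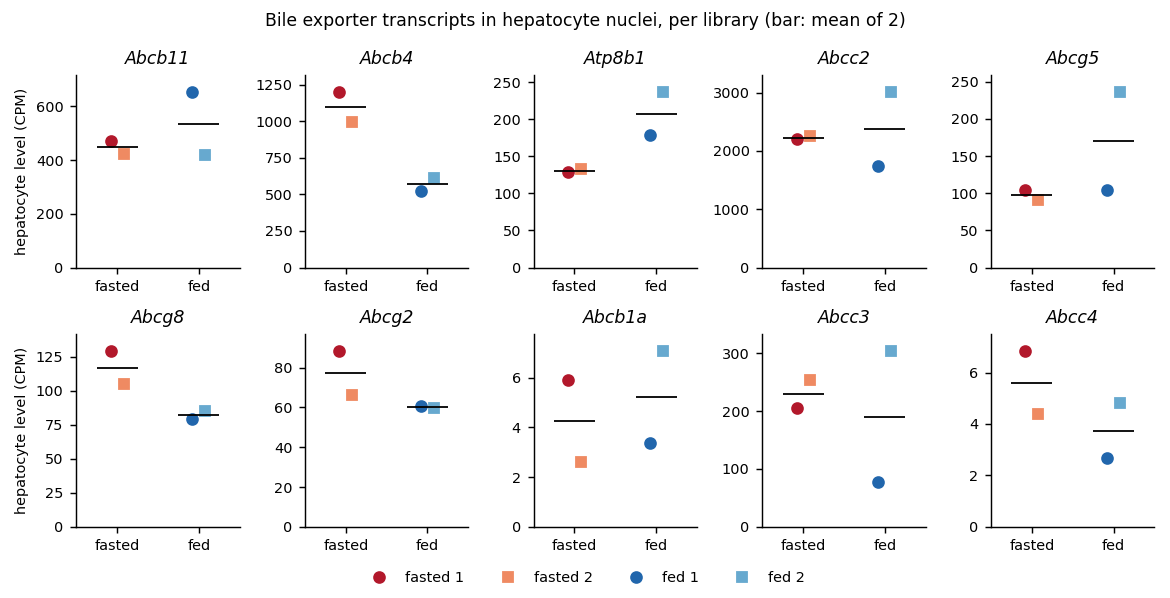
Level of each gene in hepatocyte nuclei (CPM, vertical axis from 0), 1 point per library, fasted left of fed, with a bar at the mean of 2 libraries. Abcb4, Abcg8 and Abcg2 are higher and Atp8b1 lower in both fasted libraries, and the 2 fed libraries stand far apart for Abcc3, Abcc2 and Abcg5.

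The partners of the sterol pump differed in opposite directions between feeding states, neither past the test. Abcg8 had 129 and 105 CPM in fasted hepatocytes, against 79.1 and 84.9 CPM in fed hepatocytes (log2 difference 0.47, SE 0.30, edgeR adjusted p = 0.851). Abcg5 had 104 and 90.4 CPM in fasted hepatocytes, against 104 and 236 CPM in fed hepatocytes (-0.87, SE 0.47, edgeR adjusted p = 0.806). Fed 2 alone was high for Abcg5. Its difference was -0.06 without fed 2 and -1.38 without fed 1, each from a fit with 1 fed library.

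Counted as a ratio, Abcg5 over Abcg8 was 0.806 and 0.857 in fasted hepatocytes, against 1.31 and 2.78 in fed hepatocytes. The groups did not overlap, and the same order of libraries held in the periportal bin, with 0.816 and 0.906 in fasted against 1.49 and 3.01 in fed libraries. An exact two-sided permutation test of the log2 ratio gave p = 0.333, the smallest p that 2 libraries against 2 allow.

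The pair of genes is read in opposite directions from neighbouring start sites on chromosome 17, and the bases between those starts are shown for that reason. Abcg5 (chr17:84658234-84683011, minus strand) and Abcg8 (chr17:84676302-84700333, plus strand) overlap by 6710 bases in the GENCODE annotation of GRCm38. RefSeq gives Abcg8 2 start sites, and the more distant one, at 84676302, lies inside Abcg5. The nearer start of Abcg8, at 84683121, leaves 109 bases between it and the start of Abcg5. That stretch (chr17:84683012-84683120, plus strand, from RefSeq, GRCm38.p6) is intergenic for transcripts from the nearer start but lies within the gene body of Abcg8 for those from the distant one, and no part of it is singled out.
Abcg5-Abcg8 between starts: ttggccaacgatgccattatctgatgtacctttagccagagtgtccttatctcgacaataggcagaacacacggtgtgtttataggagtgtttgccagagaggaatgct

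The labels do not say whether the counting used strand, so reads from the overlap of the 2 gene bodies cannot be told apart with certainty.

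**Figure D3:**
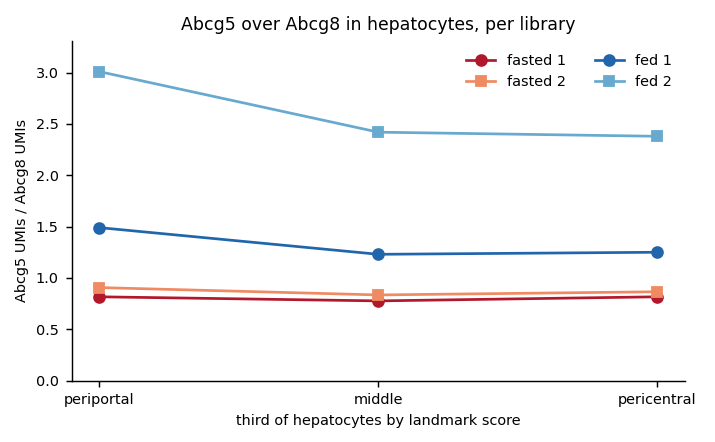
Ratio of Abcg5 UMIs to Abcg8 UMIs (vertical axis from 0) in the periportal, middle and pericentral bin of hepatocytes, 1 line per library. Both fasted libraries lie below 1 and both fed libraries above 1 in every bin, with fed 2 the highest.

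Whether the step along the lobule depends on feeding was tested as an interaction, pericentral minus periportal in fasted minus the same in fed. Of the 10 genes 0 passed, against 0.219% of 12321 genes, which were 27, and 2 had an unadjusted p below 0.05, against 7.26% of all genes. Abcb4 rose toward the central vein by 0.49 and 0.67 (log2) in the fasted libraries, against 0.92 and 0.97 in the fed libraries. The groups did not overlap, and the interaction was -0.38 (SE 0.11, edgeR unadjusted p = 0.00184, adjusted p = 0.216). It passed with no filter on low counts (-0.36, edgeR adjusted p = 0.044). It did not pass with DESeq2 (-0.38) or with DESeq2's size factors in edgeR (-0.38, adjusted p = 0.183). Nor did it pass in edgeR with the score on 1000 UMIs (-0.32, adjusted p = 0.268) or with the outer bins of 5 (-0.43, adjusted p = 0.257). With fed 1, fed 2, fasted 1 or fasted 2 left out it was -0.40, -0.39, -0.28 and -0.46, each with 1 library left in a group. Abcg8 had steps of 0.51 and 0.54 in the fasted libraries, against 1.18 and 0.54 in the fed libraries (interaction -0.46, SE 0.16, edgeR adjusted p = 0.461). Fed 1 alone held the large step of Abcg8.

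Outside hepatocytes, Abcc4, Abcg2 and Abcb1a reached higher levels than in hepatocytes in particular cell types. Counts were summed per library for each type with at least 20 nuclei in every library and set against hepatocytes in 1 edgeR fit of 9919 genes with library as a block. Hepatocyte RNA was abundant in every other type, where the median level of 10 hepatocyte markers was 38.8% to 90.5% of that in hepatocytes. Its source was not tested. A level at or under that share is therefore not read as expression, and a lower level is not read as a lack. Median depth was 808, 886, 839 and 768 UMIs in endothelial nuclei.

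Abcc4 was higher than in hepatocytes by the test in all 5 other types tested. It entered the fit only through types where it was higher, so these tests are not independent of that selection. Endothelial nuclei had 137, 158, 108 and 84.4 CPM, against 6.82, 4.37, 2.68 and 4.80 CPM in hepatocytes (log2 difference 4.66, SE 0.27, edgeR adjusted p = 7.04e-17). Cholangiocytes had 62.7, 114, 129 and 46.5 CPM (4.08, SE 0.36, edgeR adjusted p = 1.58e-11), and Kupffer cells or macrophages 58.7, 59.9, 87.4 and 56.4 CPM (3.60, SE 0.29, edgeR adjusted p = 9.85e-13). Stellate nuclei had 15.1, 9.49, 24.6 and 20.6 CPM (1.77, SE 0.37, edgeR adjusted p = 2.01e-04). B or plasma cells had 53.6, 27.2, 20.5 and 0 CPM (2.60, SE 0.54, edgeR adjusted p = 6.02e-04), from 11, 6, 2 and 0 UMIs and with only 24 nuclei in fed 2. The endothelial level was the highest in 3 of 4 libraries, and in fed 1 the cholangiocyte level was above it. In all 4 libraries stellate nuclei were below endothelial nuclei, cholangiocytes and Kupffer cells or macrophages, from 28, 4, 16 and 2 stellate UMIs. In fed 2 that order rests on 1 UMI in cholangiocytes and 6 UMIs in Kupffer cells or macrophages.

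Abcg2 was higher than in hepatocytes in endothelial nuclei, with 277, 249, 144 and 97.4 CPM, against 88.1, 66.0, 60.6 and 59.7 CPM in hepatocytes (log2 difference 1.38, SE 0.18, edgeR adjusted p = 7.12e-08). The difference held in 4 of 4 libraries. A small endothelial cluster of 259 nuclei, with Mecom and Vwf (von Willebrand factor, of larger vessels) among its leading genes, held 742, 858 and 652 CPM of Abcg2 in fasted 1, fasted 2 and fed 1. The large endothelial cluster, led by the sinusoidal marker Stab2, held 253, 220 and 123 CPM in the same libraries. Stellate nuclei had 123, 157, 114 and 61.7 CPM of Abcg2 (0.73, SE 0.20, edgeR adjusted p = 0.00325), a call that was lost without fed 1 (adjusted p = 0.0512) and without fasted 2 (adjusted p = 0.243).

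Abcb1a was higher in cholangiocytes, the cells that line bile ducts, with 77.2, 50.5, 149 and 46.5 CPM, against 5.91, 2.60, 3.39 and 7.05 CPM in hepatocytes (log2 difference 4.13, SE 0.40, edgeR adjusted p = 1.44e-10). Like Abcc4, Abcb1a entered the fit only through types where it was higher, so that test is not independent of the selection. The groups of values did not overlap, although fed 2 had only 25 cholangiocytes and 21507 UMIs, so that its 46.5 CPM of Abcb1a, and of Abcc4 above, is 1 UMI. T or NK cells, which had too few nuclei in fed 2 for a test, held 102, 24.4 and 56.0 CPM of Abcb1a in fasted 1, fasted 2 and fed 1. Abcc3 in Kupffer cells or macrophages was 247, 285, 277 and 423 CPM, against 205, 254, 76.9 and 303 CPM in hepatocytes. That level was higher in 4 of 4 libraries (0.55, SE 0.25), but the test did not pass (edgeR adjusted p = 0.0922), while it did with DESeq2 (adjusted p = 0.0451) and with DESeq2's size factors in edgeR (adjusted p = 0.0242).

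By type, the genes called higher than in hepatocytes were 2 of 10 in endothelial nuclei against 26.9% of all genes, 2 in cholangiocytes against 15.8%, 2 in stellate nuclei against 22.3%, 1 in Kupffer cells or macrophages against 18.8%, and 1 in B or plasma cells against 8.83%. The shares of cholangiocytes and of B or plasma cells lay above the background, each by less than 1 gene of 10, and the others below it. In every type these counts include Abcc4, which entered the fit, like Abcb1a, only through types where it was higher. Abcb11, Abcb4, Abcc2, Abcg5 and Abcg8 were above the hepatocyte level in no type by the test. Atp8b1 in stellate nuclei was 101%, 123%, 127% and 56.4% of its hepatocyte level, where hepatocyte markers were at 73.5%, 41.4%, 41.2% and 45.8% (log2 difference 0.06, edgeR adjusted p = 0.849).

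**Figure D4:**
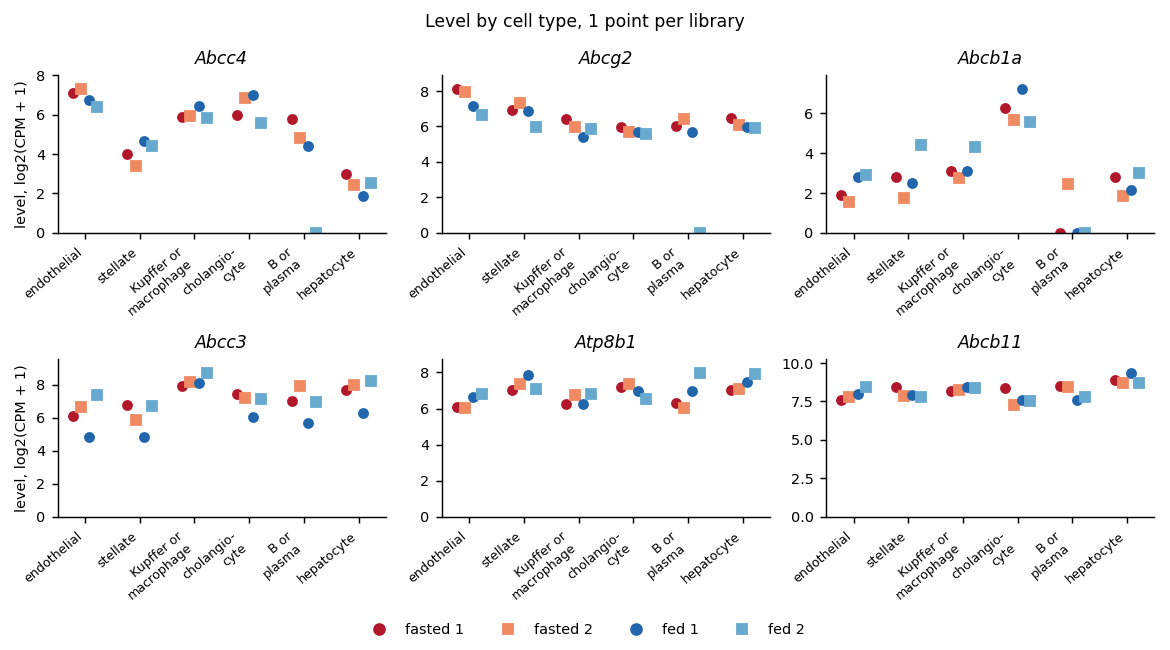
Level of 6 of the genes as log2(CPM + 1) by cell type, 1 point per library, hepatocytes at the right. Abcc4 is lowest in hepatocytes apart from a single 0 in B or plasma cells of fed 2, Abcg2 is highest in endothelial nuclei and Abcb1a in cholangiocytes, while Abcb11 lies at or below the hepatocyte level.

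No exporter passed edgeR's test of feeding in the other cell types. DESeq2 called 0, but was read only for Abcc4 in the 4 types other than B or plasma cells and for Abcb1a in cholangiocytes. In edgeR, 3 of 41 tests of an exporter in a type had an unadjusted p below 0.05. These were endothelial Abcg2, Abcb4 in cholangiocytes (edgeR unadjusted p = 0.0170) and Abcg8 in Kupffer cells or macrophages (edgeR unadjusted p = 0.0136). The last 2 stood at 28.6% to 77.6% and 22.1% to 58.1% of the hepatocyte level, where hepatocyte markers were at 38.8% to 79.9% and 48.4% to 77.0%. The share of all genes with such a p is not given here for cholangiocytes and stellate nuclei. Of the genes at least 2 times the hepatocyte level in every library, Abcc4 differed by 0.55 (log2, SE 0.38) in endothelial nuclei, -0.33 (SE 0.46) in Kupffer cells or macrophages, -0.76 (SE 0.78) in stellate nuclei and -0.28 (SE 0.65) in cholangiocytes, each with an edgeR adjusted p of 1.00. Abcb1a in cholangiocytes differed by -0.81 (SE 0.65, edgeR adjusted p = 1.00). The share of all genes that passed was 0.0502% in endothelial nuclei, 0.126% in cholangiocytes, 0.041% in stellate nuclei, and 0% in Kupffer cells or macrophages and in B or plasma cells, where 3% and 3.47% had an unadjusted p below 0.05. Endothelial Abcg2, above both fed libraries in both fasted ones, differed by 1.04 (SE 0.37, edgeR unadjusted p = 0.0163, adjusted p = 1.00), and 3.57% of endothelial genes had an unadjusted p below 0.05.

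Other genes of bile transport were read from fixed lists. Of 41 further ABC genes, 27 were tested for position and 4 were higher and 3 lower pericentrally, with a median log2 difference of 0.01, against 0.48 for the 10 exporters and 0.00 for all genes. Abcb1b, the paralogue of Abcb1a, was higher pericentrally (2.69, SE 0.45, edgeR adjusted p = 3.42e-04) at hepatocyte levels of 1.43 and 1.51 CPM in the fasted libraries, against 7.44 and 2.25 CPM in fed 1 and fed 2. Abcd4, a cobalamin transporter of lysosomes, was higher as well (0.83, SE 0.13, edgeR adjusted p = 2.27e-04).

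Of 8 genes of sinusoidal uptake, the step before secretion, 4 were higher and 1 lower pericentrally, with a median of 0.38. Slco1b2, which takes up bilirubin and bile acids, differed by 1.41 (SE 0.09, edgeR adjusted p = 4.02e-07). Slc22a7, an organic anion carrier, was the lower one (-1.47, SE 0.27, edgeR adjusted p = 8.97e-04). Slc10a1, the sodium-dependent bile acid carrier NTCP, had a difference of -0.01 (SE 0.08, edgeR adjusted p = 0.975).

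The flippase subunits Tmem30a and Tmem30b, partners of ATP8B1, were not called by position (0 of 2) or by feeding (0 of 2). Of 19 genes of the canalicular membrane and its trafficking 3 were higher and 1 lower pericentrally, with the canalicular peptidases Dpp4 (0.48, SE 0.07, edgeR adjusted p = 8.24e-05) and Anpep (0.61, SE 0.14, edgeR adjusted p = 0.00455) among the higher ones. Among 14 regulators 2 were higher and 2 lower, with Nfe2l2, which encodes NRF2, higher (0.31, SE 0.06, edgeR adjusted p = 7.66e-04) and Esrra lower (-0.57, SE 0.08, edgeR adjusted p = 4.60e-05). Of 13 other NRF2 targets 4 were higher pericentrally and 0 lower (median 0.25), Gsta3 by 0.78 (SE 0.08, edgeR adjusted p = 2.99e-06). Other LXR targets had 1 higher and 1 lower of 9, and other FXR targets 1 higher and 2 lower of 11.

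By feeding, the lists held 1 called gene. Cyp4a14, a fatty acid hydroxylase and target of the fasting receptor PPARα, had 913 and 889 CPM in fasted hepatocytes, against 4.64 and 7.05 CPM in fed hepatocytes (log2 difference 7.24, SE 0.46, edgeR adjusted p = 0.0412). It was also the 1 gene called among all 13988. Other lists had 0 called genes by edgeR, with DESeq2 calling 2 of 8 uptake genes, 1 of 10 LXR targets, 1 of 14 NRF2 targets and 1 of 33 further ABC genes, against 1.29% of all genes to which DESeq2 gave an adjusted p. The LXR target Srebf1, the lipogenic regulator, had 15.7 and 15.9 CPM in fasted hepatocytes, against 99.7 and 142 CPM in fed hepatocytes (-2.98, SE 0.37, edgeR adjusted p = 0.201, DESeq2 adjusted p = 1.44e-08). Abca1, a cholesterol exporter to lipoproteins and LXR target, had 289 and 250 CPM in fasted hepatocytes, against 528 and 425 CPM in fed hepatocytes (-0.85, SE 0.29, edgeR adjusted p = 0.649). The uptake carriers went both ways. Slc10a1 had 139 and 267 CPM in fasted hepatocytes, against 56.8 and 125 CPM in fed hepatocytes (1.11, SE 0.55, edgeR adjusted p = 0.764). Slco1a4 was also higher in both fasted libraries (1.53, SE 0.50, edgeR adjusted p = 0.633). Slco1a1 (-1.64, SE 0.41, DESeq2 adjusted p = 0.0334) and Slc22a7 (-3.19, SE 0.65, DESeq2 adjusted p = 3.02e-04) were lower in both. Their edgeR adjusted p was 0.54 and 0.47.

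Patterns along the lobule were compared with those of 6053 other hepatocyte genes, as the correlation of log2 CPM centred within library over 20 points, 5 bins in each of 4 libraries. The points of a library share its depth and landmark score, so the correlations are descriptions. Abcg8 ran closest to Nr1i3, the xenobiotic receptor CAR (Pearson's r = 0.987), and Abcb4 to Tox (0.986). Abcc2 ran closest to Cyp2c54 and to Gsta3, a glutathione transferase (0.983). For Abcc3 the closest were Tmeff2 (0.938) and Tox (0.937), for Abcg5 Gm4756 (0.965) and Slc29a1, a nucleoside carrier (0.959), and for Abcc4 Ttc38 (0.946) and Arhgap6 (0.944). Atp8b1 was closest to Nmrk1 (0.920) and Gc, the vitamin D binding protein (0.909), and Abcg2 to Ugt3a2 (0.917). Abcb11 and Abcb1a had no close match, with top values of 0.757 for Zzef1 and 0.737 for Cpne1.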

How the data were processed

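Nuclei of frozen mouse liver were sequenced by 10x chemistry 3.1, per the labels' protocols, and reads were processed with Cell Ranger 6.0 and mm10, per the submitters' processing notes. The deposited matrices hold whole-number UMI counts, and between 13.24% and 17.01% of their stored entries are 0, for a reason not given in the sources used here. Whether a step after counting changed the values is not known. Total counts were 30955600 and 24139311 UMIs in the fasted libraries, against 22924339 and 8078755 in fed libraries. Barcodes entered with 500 or more genes and no more than 5% mitochondrial counts. Scrublet's automatic threshold marked 2011, 0, 1 and 1 barcodes (fasted 1, fasted 2, fed 1, fed 2) and so had not worked, and the highest-scoring barcodes were removed at 0.8% per 1000 barcodes (1108, 450, 758 and 233).

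Counts were clustered in scanpy 1.11.5 (2000 variable genes without the exporters, 30 components, 15 neighbours, leidenalg 0.10.2 at resolution 1) and clusters named from fixed markers. The lobule score was the mean z of pericentral minus that of periportal landmarks, using those seen in 2% or more of each library's hepatocytes. Each nucleus was thinned to 1500 UMIs for it, which 4804, 4220, 4338 and 1543 nuclei reached. Scores from odd- and even-numbered landmarks correlated at 0.643, 0.657, 0.620 and 0.586.

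Summed counts as deposited were tested with edgeR 4.0.16 (quasi-likelihood, robust, TMM scaling, filterByExpr) in R 4.3.3, adjusted by Benjamini-Hochberg over all genes tested, with DESeq2 1.42.0 and limma 3.58.1 as alternatives. The fit was also run on simulated counts, with the same dispersion for all genes and no difference between libraries of a group besides depth. That run does not show how the fit behaves on these libraries. Replicate numbers carry no stated batch, and with 2 pairs they were not taken to pair libraries. All 10 exporters are named whatever their values, with up to 4 genes per list by feeding p, 2 by position p and the 3 most alike genes, of which the text gives part. The exporters and lists were chosen with earlier results of these data known. Intervals and floors cover counting error only.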

Additional observations from a re-analysis of the deposited data

How the results depend on the processing

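The 7 pericentral calls kept direction and side of the threshold under all alternatives run: DESeq2's size factors (RLE scaling), no filter on low counts, DESeq2, a score on 1000 UMIs, the 2 outer bins of 5, and each library left out in turn. Abcb11 by position turned to -0.0041 with RLE scaling, -0.0032 with DESeq2, -0.0052 on 1000 UMIs and -0.0304 with bins of 5, all within its SE.

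For feeding in hepatocytes the count of called genes depended on the setting, 1 as reported against 0 with RLE scaling, 277 with no filter, 163 with DESeq2 and 0 with each stored 0 counted as 1, and 0 exporters passed in each of these. Counting stored zeros as 1 also turned Abcc4 to -0.0688. Leaving out 1 library gave 3 to 684 genes and 0 to 1 exporters.
In the other types, called genes were 42 with no filter and 20 with DESeq2 in endothelial nuclei, 20 and 9 in Kupffer cells or macrophages, 13 and 9 in stellate nuclei, and 3 with DESeq2 in cholangiocytes. The interaction gave 118 genes and 1 exporter with no filter, 5 genes with DESeq2 and 46 with the outer bins of 5.
Among values that missed the threshold, the interaction turned to 0.0085 for Abcc2 with no filter and 0.0155 for Abcc4 with DESeq2, and stellate Atp8b1 against hepatocytes to -0.0848 with no filter. In B or plasma cells against hepatocytes, RLE scaling gave 2 exporters, and no filter 2129 genes and 7 exporters, in place of 1396 and 4.

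With 1 library left out in turn, the lone library of a group being assumed to vary like the other group, several uncalled log2 values changed sign. For feeding in hepatocytes the ranges were -0.51 to 0.0041 for Abcb11, -0.54 to 0.38 for Abcc2, -0.49 to 1.62 for Abcc3 and -1.02 to 0.35 for Abcb1a. In cholangiocytes they were -0.68 to 0.99 for Abcc4 and -1.22 to 0.64 for Abcb1a. By position they were -0.0246 to 0.0726 for Abcb11 and -0.0090 to 0.23 for Abcb1a. For the interaction they were -0.0202 to 0.22 for Abcb11, -0.20 to 0.16 for Abcc2, -6.10 to 2.40 for Abcc4, -0.50 to 0.27 for Abcg5, -0.53 to 0.028 for Abcb1a and -0.40 to 0.22 for Abcg2, with 0 to 286 genes and 0 to 3 exporters called. The 3 exporters, without fed 2, were Abcb4, Abcg5 (-0.50, edgeR adjusted p = 0.024) and Abcg8 (-0.72, edgeR adjusted p = 2.4e-04). Against hepatocytes, endothelial Abcb1a ranged from -0.86 to 0.24 and stellate Atp8b1 from -0.16 to 0.19.

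Counts of genes called by feeding then ranged from 7 to 187 in endothelial nuclei, 1 to 20 in cholangiocytes, 2 to 16 in Kupffer cells or macrophages and 0 to 39 in stellate nuclei. Against hepatocytes they ranged from 3143 to 5308 in endothelial nuclei, 1555 to 3031 in cholangiocytes, 1694 to 3903 in Kupffer cells or macrophages (4 to 8 exporters), 2581 to 4196 in stellate nuclei and 485 to 1539 in B or plasma cells (1 to 5 exporters).

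Replicate numbers were added as a block only as an alternative: the 2 differences between libraries correlated at 0.394 over 13988 genes. With the replicate block, feeding calls were 186 genes and 0 exporters in hepatocytes, 44 genes in endothelial nuclei, 23 in Kupffer cells or macrophages, 10 in cholangiocytes and 7 in stellate nuclei.

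The cause of these shifts was not tested. Position-adjusted means in limma gave no value for Abcc4, which its filter removed, and the comparison with landmarks of an earlier analysis was not run, since that table was not used here. Depth limits Abcc4 and Abcb1a in hepatocytes and all cholangiocyte and B or plasma cell values of fed 2.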
